A study of Homo sapiens with 27 samples.

Results

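Polyamine metabolism was followed through 10 genes, each read from 1 probe set, among the 12390 genes tested on 27 expression arrays of 3 human cancer cell lines. The genes were ODC1, AMD1, SRM and SMS (synthesis), OAZ1, OAZ2 and AZIN1 (the antizyme circuit), SAT1 (acetylation), MTAP (salvage of the by-product) and ARG2 (supply of ornithine). They were chosen by name, and each was read from its brightest single-gene probe set over all arrays. All 10 passed the filter on low signal, which kept probe sets as bright as the array's median probe set on 3 or more arrays. ARG2 passed it only through MKN-45, and MTAP only through EBC-1 and HCC827. The 9 groups held 3 arrays each, which the labels call biological replicates. In each line they were SGX-523 for 24 h, SGX-523 for 48 h, and DMSO, the solvent. SGX-523 is a small molecule that blocks the kinase of the receptor MET, and it was given at 1 uM. EBC-1 (a non-small cell lung cancer line) and MKN-45 (a gastric cancer line) are described by the study as addicted to MET. HCC827, also a non-small cell lung cancer line, served as the negative control, with an active receptor but no dependence on it. The labels name no genetic change in any group, and each line stands for 1 tumour. The comparison asks which transcripts of the pathway move when the receptor is blocked in a line that depends on it.

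The polyamines putrescine, spermidine and spermine are small, positively charged molecules that bind nucleic acids and are needed for growth. ODC1 (ornithine decarboxylase) makes putrescine from ornithine, AMD1 (adenosylmethionine decarboxylase) makes the aminopropyl donor, SRM (spermidine synthase) makes spermidine and SMS (spermine synthase) makes spermine. Antizymes such as OAZ1 and OAZ2 bind the ODC1 protein and send it for degradation, and the antizyme inhibitor AZIN1 competes for that binding. SAT1 acetylates spermidine and spermine for export or oxidation, MTAP recycles the methylthioadenosine left over by both synthases, and ARG2 is the mitochondrial arginase that releases ornithine. ODC1 is a textbook target of the transcription factor MYC, which binds the E-box CACGTG.

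Stretches before the start sites of ODC1, SRM and AMD1 are shown, because these 3 genes were called lower with SGX-523 in all 3 lines at 48 h. They come from RefSeq, build GRCh38.p14, and are written 5′ to 3′ on the strand of the gene (minus for ODC1 and SRM, plus for AMD1), with an E-box in capitals. The ODC1 line covers chr2:10448328-10448577, the SRM line chr1:11060019-11060268, the AMD1 line chr6:110874535-110874784, and the short line chr2:10448024-10448053, which lies before a second annotated ODC1 start.
ODC1 promoter, first start: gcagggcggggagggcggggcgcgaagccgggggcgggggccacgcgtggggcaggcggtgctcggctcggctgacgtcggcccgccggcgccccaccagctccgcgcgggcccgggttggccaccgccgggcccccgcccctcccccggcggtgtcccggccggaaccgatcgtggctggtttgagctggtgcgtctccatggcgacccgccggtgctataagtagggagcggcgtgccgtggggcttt
SRM promoter: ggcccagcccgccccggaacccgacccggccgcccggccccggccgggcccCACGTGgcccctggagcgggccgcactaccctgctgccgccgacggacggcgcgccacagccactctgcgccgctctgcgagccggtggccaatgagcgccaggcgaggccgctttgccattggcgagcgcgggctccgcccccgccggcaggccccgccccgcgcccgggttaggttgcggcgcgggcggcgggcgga
AMD1 promoter, first window: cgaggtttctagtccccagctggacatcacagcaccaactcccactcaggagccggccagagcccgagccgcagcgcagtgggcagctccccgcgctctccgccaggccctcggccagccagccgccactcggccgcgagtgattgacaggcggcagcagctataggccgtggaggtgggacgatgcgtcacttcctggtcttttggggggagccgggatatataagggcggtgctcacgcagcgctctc
ODC1 E-box before the second start: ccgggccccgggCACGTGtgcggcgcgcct
The first ODC1 stretch holds no E-box, the E-box of the second begins 29 bases before its start, and that of SRM 199 bases before. A second E-box in the second ODC1 window lies 5 bases after the start and is not printed. None of the motifs below was found in the AMD1 stretch or in the other 2 AMD1 windows. RefSeq windows from 250 bases before to 50 after a start were found for 9 of the 10 genes (12 windows). They were searched on both strands for CACGTG (E-box), GTAAACA (FOXO), CGGAAGT (ETS), TTGGCGC (E2F) and TGACTCA (AP-1). Among all 35116 windows, 7.26% held the E-box, 3.42% the FOXO, 6.83% the ETS, 3.04% the E2F and 4.95% the AP-1 letters. Matches were found in 3 of the genes, which were ODC1, SRM and OAZ2 (AP-1, 241 bases before the start). A match is a string of letters and no measured binding site.

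All values are on the log2 scale, and a change is SGX-523 minus DMSO ± the SE from limma. A change counts as called at an adjusted p below 0.05, with the Benjamini-Hochberg method applied across every gene tested. These p-values measure the spread between the arrays of a group, pooled over the 9 groups. The number of arrays limits the precision, as does 1 HCC827 array described below, and the median SE of a difference over all genes was 0.11. The array medians lay at 5.71 to 5.73 for HCC827 and at 5.02 to 5.14 for the other lines, so levels of HCC827 are not set against those of the other lines and only responses are. HCC827 SGX-523 24 h replicate 3 stood apart, with Pearson's r of 0.9623 to 0.9667 with the other HCC827 arrays, which had at least 0.9929 among themselves. Because the spread is pooled, that array also widened the SE in the other lines. With it left out, the SE of the 24 h change in EBC-1 was 0.0483 in place of 0.102 for AMD1 and 0.0394 in place of 0.105 for SMS. For AZIN1 it was 0.0397 in place of 0.102, and for ODC1 0.0489 in place of 0.0599. The labels give no time for DMSO, so both times share the same 3 DMSO arrays, and time in culture and treatment cannot be told apart. In bulk RNA, fewer expressing cells and less RNA per cell cannot be told apart either. Of 6 epithelial markers, 5 in EBC-1 (all but CDH1), 6 in MKN-45 and 6 in HCC827 lay above the array median. Of 8 gastric and intestinal markers 4, 7 and 0 did so in these lines, of 6 lung markers 3, 3 and 4, of 3 squamous markers on the array 0, 2 and 0, of 6 fibroblast markers 2, 0 and 1, and of 5 leukocyte markers on the array 2 in each line.

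**Figure D1:**
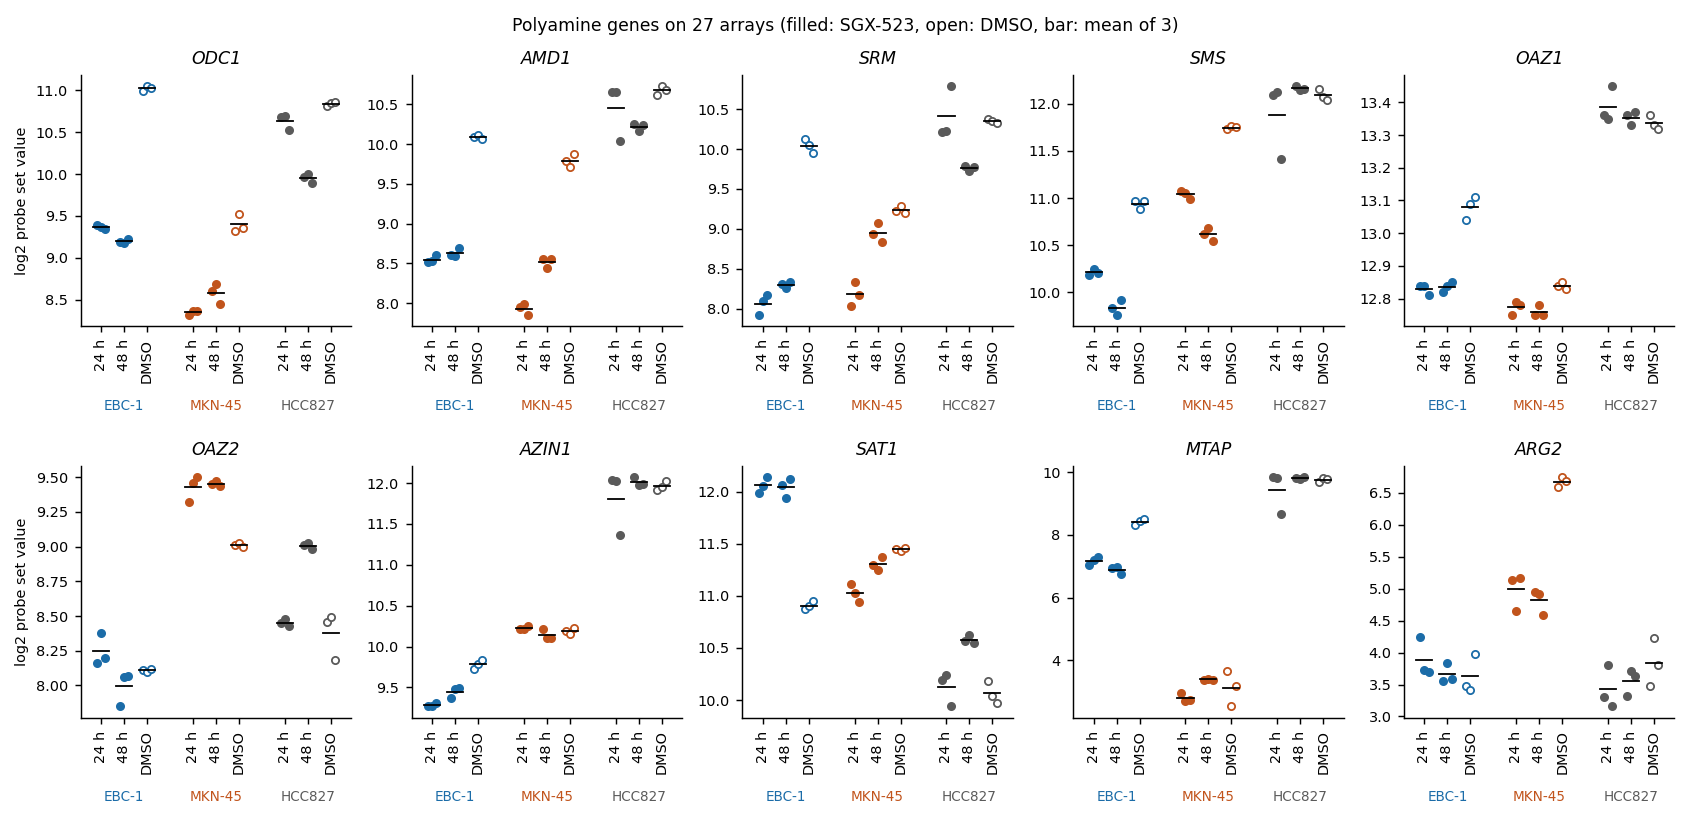
Log2 probe set values of the 10 genes on all 27 arrays, by cell line and by SGX-523 24 h, SGX-523 48 h and DMSO. Points are arrays and bars are means of 3 arrays. In EBC-1 and MKN-45 the treated arrays of ODC1, AMD1, SRM and SMS all lie below DMSO, SAT1 lies above DMSO in EBC-1 and not in MKN-45, and MTAP lies between 2.54 and 3.66 in MKN-45. Treated and DMSO arrays of EBC-1 and MKN-45 do not overlap for 70.3% to 72.5% of all genes, by line and time. HCC827 levels are not comparable with those of the other lines.

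In both MET-dependent lines all 4 synthesis genes fell at both times, with a median change of −1.6 at 24 h and −1.6 at 48 h in EBC-1, and −1.05 and −0.98 in MKN-45. The medians of all genes tested were 0.036 and 0.067 in EBC-1 and 0.051 and 0.056 in MKN-45. Over the 10 genes, 1 was called higher and 7 lower in EBC-1 at 24 h, where 31.2% of all genes tested were called higher and 28% lower. At 48 h in EBC-1 the counts were again 1 and 7, against 32.7% and 28.9% of all genes. In MKN-45 at 24 h they were 1 and 7, against 33.4% and 26.9%, and at 48 h 1 and 6, against 36.4% and 26.2%. In HCC827 none was called at 24 h, where 0.0323% of all genes were called higher and 0% lower. At 48 h in HCC827, 2 were called higher and 3 lower, against 11.6% and 10.7% of all genes. The median change over the 10 genes was −0.61 and −0.72 in EBC-1, −0.56 and −0.21 in MKN-45, and −0.18 and 0.03 in HCC827, at 24 h and 48 h. Treated and DMSO arrays did not overlap for 9 and 9 of the 10 genes in EBC-1, against 70.4% and 72.5% of all genes. For MKN-45 this held for 8 and 8, against 70.3% and 72%, and for HCC827 for 1 and 5, against 12.3% and 51.3%. Between 48 h and 24 h it held for 6 in EBC-1, 7 in MKN-45 and 5 in HCC827, against 36.4%, 44.9% and 33.1%. A lack of overlap is therefore common here and does not set a gene apart. The counts for MKN-45 include ARG2, whose filter is discussed with its values. These shares were not tested against each other, since the genes were chosen with results known.

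External control transcripts moved with the treatment in the same 2 lines. The 18 hybridization control probe sets were higher with SGX-523 by 0.332 and 0.380 in EBC-1, by 0.328 and 0.322 in MKN-45, and by 0.117 and 0.018 in HCC827, at 24 h and 48 h. Scaled on these controls, an alternative added after the data were seen, the median of all genes lay at −0.328, −0.321, −0.290, −0.252, −0.100 and −0.035. Higher genes then made up 22.1%, 22.5%, 24.7% and 29.7% of the calls in EBC-1 and MKN-45, against 52.6%, 53.2%, 55.4% and 58.2% as deposited, and 41.9% against 52% in HCC827 at 48 h. Of the 10 genes, 1 was then higher and 8 lower in EBC-1 at 24 h and at 48 h, and 0 and 8 in MKN-45 at both times. Over all genes the shares were 15.2% higher and 53.5% lower, 15.3% and 52.4%, 16.5% and 50.1%, and 20% and 47.5%. In HCC827 at 24 h no gene was called on that scale, and as deposited all 4 calls were higher. The 4 synthesis genes stayed lower and called in EBC-1 and MKN-45 on that scale. That scaling moves all changes in these lines downward, so it cannot check whether a gene fell. SAT1 stayed higher and called in EBC-1, at 0.79 and 0.75. The ratio of the 3′ to the 5′ ACTB control probe sets, on the log2 scale, averaged 3.76 and 3.89 with SGX-523 against 3.36 with DMSO in EBC-1, 3.68 and 4.16 against 3.53 in MKN-45, and 2.65 and 2.33 against 2.08 in HCC827. The exact two-sided permutation p was 0.1 in each, the smallest that 3 against 3 arrays allow. The HCC827 24 h group, which holds the array that stood apart, had an SD of 0.658 for this ACTB ratio. The SD was 0.0958 at 48 h and 0.071 with DMSO in that line, so the 24 h mean is poorly fixed. The same ratio for GAPDH averaged 0.39 and 0.45 against 0.36 in EBC-1, 0.40 and 0.56 against 0.34 in MKN-45, and 0.16 and 0.13 against 0.14 in HCC827. The part of these shifts in the changes of the 10 genes was not tested.

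**Figure D2:**
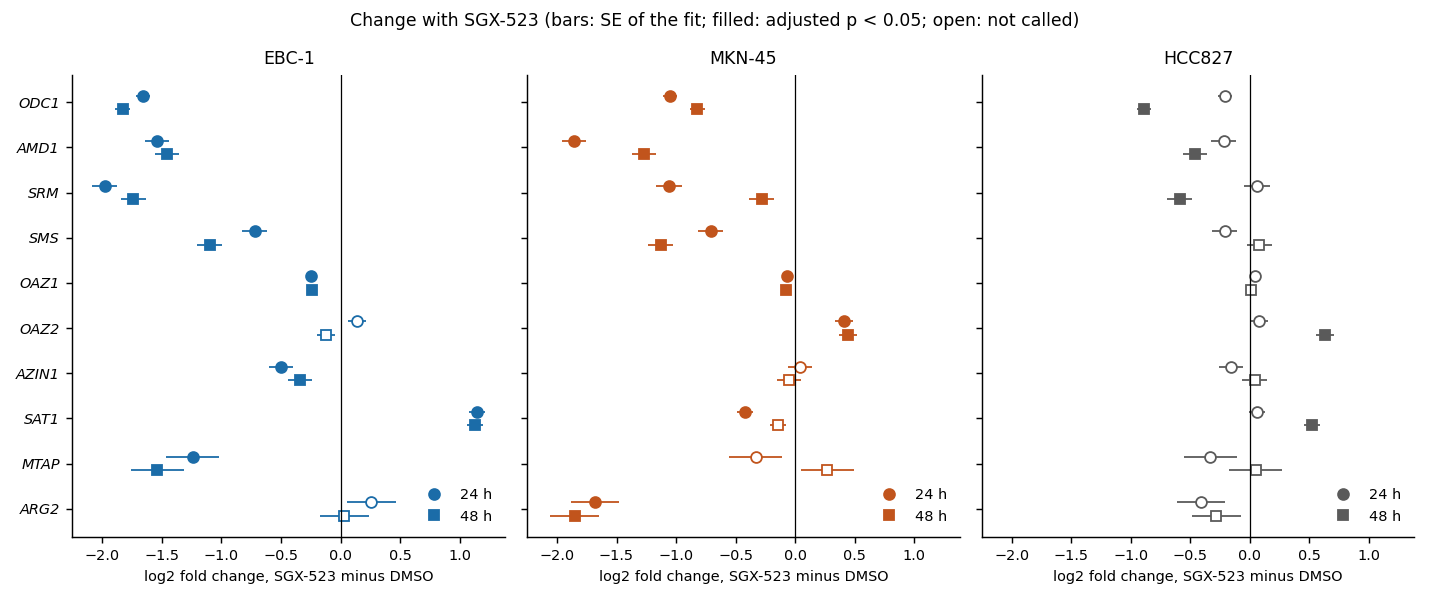
Log2 fold change of each gene, SGX-523 minus DMSO, in 3 cell lines at 24 h (circles) and 48 h (squares), with the SE of the fit as bars. Filled symbols passed an adjusted p of 0.05. ODC1, AMD1, SRM and SMS lie left of 0 in EBC-1 and MKN-45, and SAT1 lies at 1.15 and 1.13 in EBC-1 but at −0.42 and −0.14 in MKN-45.

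ODC1, the first step of the pathway, read 9.39, 9.37 and 9.34 with SGX-523 at 24 h and 9.19, 9.18 and 9.22 at 48 h in EBC-1, against 10.99, 11.05 and 11.03 with DMSO. The treated arrays all lay more than a unit below DMSO and close to each other. ODC1 was thus 3.16-fold lower at 24 h (−1.66 ± 0.0599, adjusted p = 1.17e-17), and the 48 h change was −1.83 ± 0.0599 (adjusted p = 1.4e-18). In MKN-45, ODC1 read 8.32, 8.37 and 8.37 at 24 h and 8.61, 8.69 and 8.45 at 48 h, against 9.32, 9.52 and 9.36 with DMSO. Here too no treated array reached a DMSO array, and the 48 h arrays lay above the 24 h arrays. The changes were −1.05 ± 0.0599 (adjusted p = 1.17e-13) and −0.82 ± 0.0599 (adjusted p = 1.08e-11). ODC1 has 1 single-gene probe set on the array, so no other probe set checks it.

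AMD1, which supplies the aminopropyl group, had its lowest values in MKN-45 at 24 h. There it read 7.95, 7.99 and 7.85, and at 48 h 8.56, 8.44 and 8.55, against 9.79, 9.71 and 9.87 with DMSO. The 3 groups did not overlap, with 48 h between 24 h and DMSO. The changes were −1.86 ± 0.102 (adjusted p = 4.61e-14) and −1.27 ± 0.102 (adjusted p = 5.54e-11). In EBC-1, AMD1 read 8.51, 8.53 and 8.60 at 24 h and 8.60, 8.59 and 8.69 at 48 h, against 10.09, 10.11 and 10.06 with DMSO. The times overlapped and both lay below DMSO, by −1.54 and −1.46. The other 5 AMD1 probe sets fell in both lines at both times, with changes between −2.04 and −1.2.

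SRM, which makes spermidine, showed the largest change of the 10 genes in EBC-1 at 24 h. It read 7.92, 8.10 and 8.17 at 24 h and 8.31, 8.26 and 8.33 at 48 h, against 10.13, 10.05 and 9.95 with DMSO. All treated arrays lay far below DMSO, and the changes were −1.98 ± 0.106 and −1.74 ± 0.106 (adjusted p = 2.81e-14 and 3.02e-13). In MKN-45, SRM read 8.03, 8.33 and 8.17 at 24 h and 8.94, 9.07 and 8.84 at 48 h, against 9.22, 9.28 and 9.20 with DMSO. The 48 h arrays lay between the 24 h and the DMSO arrays, nearer to DMSO. The changes were −1.06 ± 0.106 and −0.28 ± 0.106 (adjusted p = 4.23e-09 and 0.0226). The 48 h call was lost without DMSO replicate 2 (adjusted p = 0.0686), without 48 h replicate 1 (0.0521) and without 48 h replicate 3 (0.101). With HCC827 24 h replicate 3 left out of the pooled fit, the call held (adjusted p = 0.000223). The second SRM probe set was called lower at both times, at −1.25 and −0.45 in MKN-45.

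SMS, which makes spermine, was lower at 48 h than at 24 h in both lines. It read 10.18, 10.25 and 10.21 at 24 h and 9.83, 9.76 and 9.92 at 48 h in EBC-1, against 10.97, 10.88 and 10.97 with DMSO. In MKN-45 it read 11.08, 11.05 and 10.99 at 24 h and 10.62, 10.68 and 10.55 at 48 h, against 11.73, 11.76 and 11.75 with DMSO. In both lines the 3 groups did not overlap, and the 48 h arrays were the lowest. The changes at 24 h were −0.72 ± 0.105 in EBC-1 and −0.71 ± 0.105 in MKN-45 (adjusted p = 1.52e-06 and 2.15e-06), and at 48 h −1.10 and −1.13. A second SMS probe set changed alike, and the remaining one lay under the array median on all 27 arrays.

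In HCC827 the synthesis genes did not pass the test at 24 h, and 3 of the 4 were called lower at 48 h. ODC1 read 10.68, 10.69 and 10.52 at 24 h and 9.97, 10 and 9.89 at 48 h, against 10.81, 10.85 and 10.86 with DMSO. The 48 h arrays lay well below the others, and the 24 h arrays just below DMSO. The change was −0.21 ± 0.0599 at 24 h, with an adjusted p of 0.211 and an unadjusted p of 0.0018, and −0.89 ± 0.0599 at 48 h (adjusted p = 1.74e-10). AMD1 changed by −0.46 ± 0.102 at 48 h (adjusted p = 0.00177) and SRM by −0.59 ± 0.106 (adjusted p = 0.000236), while the value of SMS was 0.08 ± 0.105 (adjusted p = 0.678). The AMD1 call was lost in a fit of HCC827 alone (adjusted p = 0.0914), which still holds 24 h replicate 3. Without that array the pooled fit gave −0.46 ± 0.0483 for AMD1 at 48 h (adjusted p = 6.91e-09). The other 5 AMD1 probe sets were all called lower at 48 h, at −0.72 to −0.50.

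The 24 h values of HCC827 rest in part on replicate 3. On it AMD1 read 10.04, against 10.66 and 10.66 on the other treated arrays and 10.62 to 10.73 with DMSO. SRM was high there, at 10.79 against 10.21 and 10.23, and SMS, AZIN1 and MTAP were low, at 11.42, 11.36 and 8.68. Without that array no member was called at 24 h either, the change of ODC1 was −0.15 ± 0.0547 (adjusted p = 0.554), and 20 genes in all were called in place of 4. At an unadjusted p under 0.05, 2614 genes passed in the full set. Without replicate 1, ODC1, AMD1 and SMS were called lower, and without replicate 2 these 3 and ARG2 were. The 3 and 4 calls compare with 19.3% and 21.6% of all genes called in the same fits.

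Between 48 h and 24 h with SGX-523, the synthesis genes of MKN-45 moved in different directions. There 5 of the 10 genes were called, where 24.3% of all genes were. ODC1 was higher at 48 h than at 24 h by 0.23 ± 0.0599, AMD1 by 0.59 ± 0.102 and SRM by 0.77 ± 0.106, while SMS was lower by −0.42 ± 0.105. The other 5 AMD1 probe sets gave 0.07 to 0.63, and only 2 of them were called. The second SRM probe set gave 0.81, called. SAT1 was higher by 0.28 ± 0.0672, but by 0.03 over the mean of its probe sets (adjusted p = 0.862). The ODC1 call was lost without 48 h replicate 2 (0.17, adjusted p = 0.0567), and held without HCC827 24 h replicate 3 (adjusted p = 0.000395). In EBC-1, 2 of the 10 were called, SMS (−0.38 ± 0.105) and OAZ2 (−0.26 ± 0.0759), against 11.1% of all genes. The SMS call was lost without any of 4 arrays (adjusted p = 0.0516 to 0.084), and the OAZ2 call without 24 h replicate 2 (adjusted p = 0.193) or 48 h replicate 1 (adjusted p = 0.192). With HCC827 24 h replicate 3 left out, both calls held (adjusted p = 9.52e-09 for SMS and 0.00547 for OAZ2). In that fit ODC1 (−0.17, adjusted p = 0.0116), SRM (0.24, adjusted p = 0.00615) and AZIN1 (0.17, adjusted p = 0.00229) were called too. This made 5 of the 10, where 24% of all genes were called. The second probe sets of SRM and AZIN1 gave 0 and 0.02, not called. The count in EBC-1 lay between 0 and 6 over the alternatives run. In HCC827, 5 were called, against 26.5% of all genes. These were ODC1 (−0.67), SRM (−0.65), SMS (0.29), OAZ2 (0.55) and SAT1 (0.46), and the SMS value was 0.06 without 24 h replicate 3 (adjusted p = 0.354). Without that array AMD1 was called lower, at −0.45 (adjusted p = 1.94e-07).

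The antizyme genes differed in direction and size. OAZ1, the broadly expressed antizyme, fell in EBC-1 by −0.25 ± 0.0263 at 24 h and −0.24 ± 0.0263 at 48 h (adjusted p = 8.5e-09 and 1.32e-08). It read 12.84, 12.84 and 12.81 at 24 h and 12.82, 12.84 and 12.85 at 48 h, against 13.04, 13.09 and 13.11 with DMSO. The groups did not overlap, and the difference was smaller than those of ODC1 and SRM in EBC-1. In MKN-45 its changes were −0.07 ± 0.0263 and −0.08 ± 0.0263 (adjusted p = 0.0304 and 0.00939). Under quantile normalization neither passed (adjusted p = 0.0941 and 0.198), and leaving out 1 of 4 arrays in turn also ended the 24 h call. The other 5 OAZ1 probe sets were all called lower in EBC-1, at −0.29 to −0.22 at 24 h and −0.52 to −0.27 at 48 h. In MKN-45 they gave −0.09 to −0.02 at 24 h, with 0 called. At 48 h they gave −0.18 to 0.02 there, with 4 called lower.

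OAZ2, a second antizyme, was called higher in MKN-45 and in HCC827 at 48 h. It read 9.32, 9.46 and 9.50 at 24 h and 9.45, 9.47 and 9.44 at 48 h in MKN-45, against 9.01, 9.03 and 9.0 with DMSO. No treated array reached down to DMSO, and the changes were 0.41 ± 0.0759 and 0.44 ± 0.0759 (adjusted p = 4.27e-05 and 1.86e-05). Scaled on the hybridization controls they were 0.07 and 0.13 and were not called. In HCC827, OAZ2 read 9.01, 9.03 and 8.98 at 48 h, against 8.46, 8.49 and 8.18 with DMSO, a change of 0.63 ± 0.0759 (adjusted p = 1.41e-06). The second OAZ2 probe set gave 0.17 and 0.10 in MKN-45 and 0.20 in HCC827 at 48 h, none of them called. In EBC-1 the probe set used gave 0.14 ± 0.0759 and −0.12 ± 0.0759 (adjusted p = 0.122 and 0.192), and the second one was called lower, at −0.39 and −0.59. Scaled on the hybridization controls, the 24 h value of the probe set used was −0.22 (adjusted p = 0.0338). Its direction at 24 h in EBC-1 is therefore unsettled. At 48 h it was negative under every alternative run, and called when scaled on the hybridization controls (−0.50, adjusted p = 3.78e-05) and over the mean of the probe sets (−0.35, adjusted p = 7.46e-05).

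AZIN1, which opposes the antizymes, fell in EBC-1 and showed no called change in the other lines. It read 9.27, 9.27 and 9.31 at 24 h and 9.37, 9.48 and 9.49 at 48 h in EBC-1, against 9.73, 9.79 and 9.83 with DMSO. All treated arrays lay below all DMSO arrays, by −0.50 ± 0.102 (adjusted p = 0.000145) and −0.34 ± 0.102 (adjusted p = 0.00614). AZIN1 gave 0.04 and −0.05 in MKN-45, and −0.16 and 0.04 in HCC827, each with an SE of 0.102. The second AZIN1 probe set was also called lower in EBC-1, at −0.36 and −0.33, and was called higher in MKN-45 at 24 h, at 0.30.

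SAT1, the acetyltransferase that starts polyamine breakdown, moved in opposite directions in the MET-dependent lines. In EBC-1 it read 11.99, 12.06 and 12.14 at 24 h and 12.07, 11.94 and 12.12 at 48 h, against 10.87, 10.90 and 10.95 with DMSO. Every treated array lay about a unit above DMSO, the other SAT1 probe sets gave 1.13 to 1.36, and the changes were 1.15 ± 0.0672 and 1.13 ± 0.0672 (adjusted p = 1.43e-13 and 1.72e-13). In MKN-45 it read 11.11, 11.03 and 10.94 at 24 h and 11.30, 11.25 and 11.37 at 48 h, against 11.45, 11.43 and 11.46 with DMSO. There all treated arrays lay below DMSO, the 24 h arrays the lowest. SAT1 changed by −0.42 ± 0.0672 at 24 h (adjusted p = 7.27e-06), and the later value was −0.14 ± 0.0672 (adjusted p = 0.0712). It passed when the third treated HCC827 array of 24 h was left out of the pooled fit (adjusted p = 0.0116), and was −0.46 over the mean of the probe sets (adjusted p = 0.000242). The other SAT1 probe sets gave −0.63 and −0.42 at 24 h and −0.90 and −0.33 at 48 h, of which −0.33 was not called.

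In HCC827, SAT1 read 10.19, 10.24 and 9.94 at 24 h and 10.57, 10.62 and 10.55 at 48 h, against 10.18, 10.04 and 9.97 with DMSO. The 48 h arrays lay above all others, while 24 h and DMSO overlapped. The values were 0.06 ± 0.0672 and 0.52 ± 0.0672 (adjusted p = 0.583 and 3.96e-06). The response of SAT1 in EBC-1 exceeded that in MKN-45 by 1.57 ± 0.0950 at 24 h and 1.28 ± 0.0950 at 48 h (adjusted p = 1.71e-12 and 4.92e-11).

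**Figure D3:**
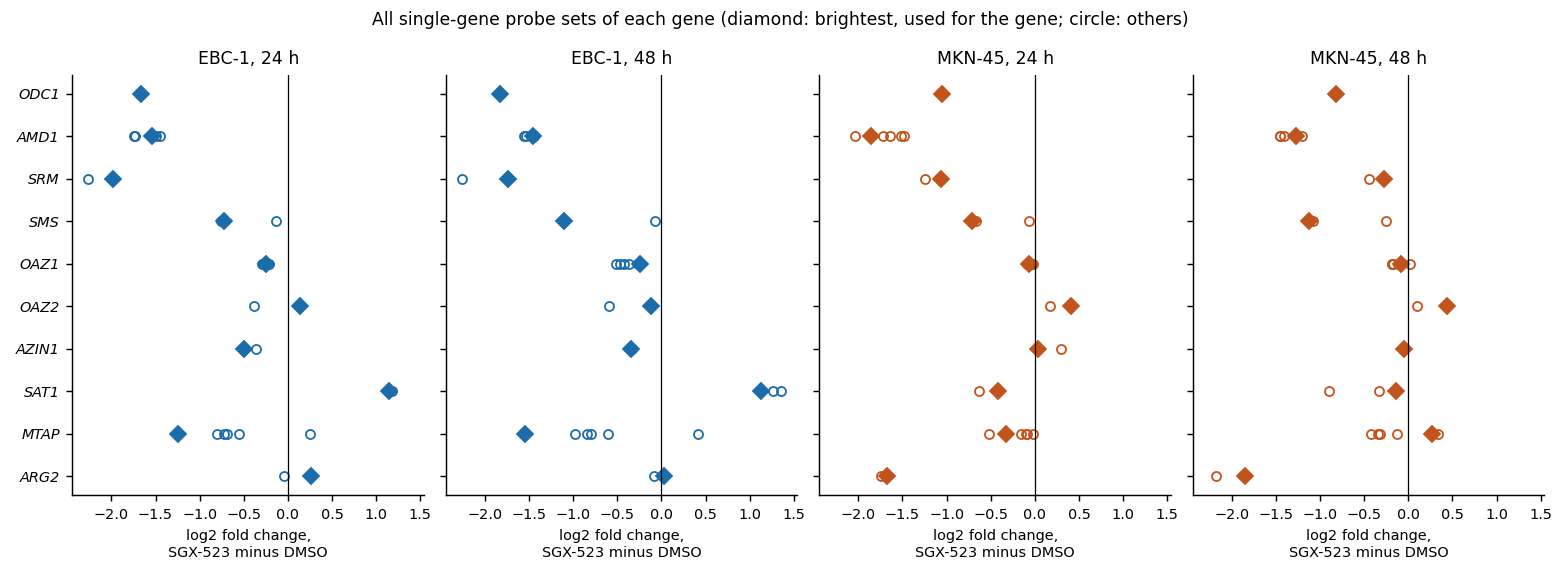
Log2 fold change, SGX-523 minus DMSO, of every single-gene probe set of each gene in EBC-1 and MKN-45 at 24 h and 48 h. Diamonds are the brightest probe set, used for the gene, and circles the others. The AMD1, SRM and SAT1 probe sets lie on 1 side of 0 in each panel, whereas those of OAZ2 straddle 0 in EBC-1 at 24 h and 1 MTAP probe set lies right of 0 in EBC-1.

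MTAP, the salvage enzyme, was read by 6 probe sets, and its level set MKN-45 apart. With DMSO it averaged 8.43 ± 0.0964 in EBC-1 and 3.13 ± 0.561 in MKN-45 (SD, 3 arrays each). The difference, EBC-1 minus MKN-45, was 5.30. It is given as a description, because MTAP passed the filter only through lines where it is high and lay under the array median on all 9 MKN-45 arrays. In HCC827 it averaged 9.77 ± 0.0586 with DMSO and lay above the median on all 9 arrays. Of the 6 probe sets 5 lay under the median on all MKN-45 arrays. The remaining one averaged 5.59 in EBC-1 and 5.68 in MKN-45 with DMSO, and lay above the median on all 9 arrays of each.

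MTAP fell with SGX-523 in EBC-1. It read 7.04, 7.21 and 7.31 at 24 h and 6.94, 6.97 and 6.75 at 48 h, against 8.32, 8.45 and 8.51 with DMSO. No treated array came within a unit of DMSO, and the changes were −1.24 ± 0.222 and −1.54 ± 0.222 (adjusted p = 2.88e-05 and 1.3e-06). Of the other 5 probe sets, 3 were called lower at 24 h and 4 at 48 h, with smaller changes between −0.98 and −0.61 at 48 h, while the probe set that lay above the median in MKN-45 gave 0.25 and 0.41, not called. In HCC827 the values were −0.33 ± 0.222 at 24 h, or 0.06 ± 0.161 without replicate 3, and 0.05 ± 0.222 at 48 h. In MKN-45 they were −0.33 and 0.27, not called, between levels that all lay under the array median. The 24 h value was called without DMSO replicate 2 (−0.62, adjusted p = 0.0151), and the 48 h value without DMSO replicate 1 (0.53, adjusted p = 0.042).

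ARG2, the arginase, could be read only in MKN-45, where it reached the array median on 5 arrays, all DMSO arrays among them. It passed the filter through these arrays, which favours a difference in this direction. It read 5.14, 4.65 and 5.17 at 24 h and 4.95, 4.92 and 4.58 at 48 h, against 6.59, 6.74 and 6.68 with DMSO. All treated arrays lay more than a unit below DMSO. The changes were −1.68 ± 0.205 and −1.85 ± 0.205 (adjusted p = 1.06e-07 and 1.96e-08), and the second probe set gave −1.74 and −2.18. Mean treated levels lay 0.14 and 0.29 below the array median at 24 h and 48 h (−0.14 and −0.29), so the size of the fall is uncertain. The second probe set reached the median on 4 arrays, all of MKN-45. Since the filter favoured this direction, the values describe a fall in MKN-45, and their adjusted p adds no independent evidence of its direction. In EBC-1 and HCC827 no array reached the median, and changes there between −0.41 and 0.26 were not called.

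With DMSO all 10 genes differed between EBC-1 and MKN-45, where 67.6% of all genes did. ODC1 was higher in EBC-1 by 1.62 ± 0.0599, SRM by 0.81 ± 0.106, AMD1 by 0.29 ± 0.102 and OAZ1 by 0.24 ± 0.0263. SMS was lower in EBC-1 by −0.81 ± 0.105, OAZ2 by −0.91 ± 0.0759, AZIN1 by −0.40 ± 0.102, and SAT1 by −0.54 ± 0.0672. The remaining genes, MTAP and ARG2, each passed the filter without any array of the line where it is low. ARG2 averaged 3.63 ± 0.309 in EBC-1, which is under the array median (−1.4), and 6.67 ± 0.0717 in MKN-45 (SD, 3 arrays each), so their calls show no more than a signal in 1 of these lines. The AMD1 difference was −0.08 (adjusted p = 0.467) over the mean of its probe sets, and was lost without MKN-45 DMSO replicate 2 (0.25, adjusted p = 0.0566). The AZIN1 difference was −0.11 over the mean of its probe sets (adjusted p = 0.393). Treated EBC-1 cells at 24 h had an ODC1 mean of 9.36 ± 0.0223, which lay within 1 SD of that of MKN-45 cells given DMSO, 9.40 ± 0.101 (SD, 3 arrays each).

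Whether the lines responded differently was tested directly. EBC-1 and HCC827 differed in 8 of the 10 genes at 24 h and in 9 at 48 h, where 51.6% and 48.7% of all genes differed. MKN-45 and HCC827 differed in 8 at 24 h and 5 at 48 h, against 52.7% and 51.1%. EBC-1 and MKN-45 differed in 8 and 7, against 42.1% and 49%. The count of 5 is close to the share over all genes. The counts of EBC-1 against MKN-45 include MTAP and ARG2, and those of MKN-45 against HCC827 include ARG2. Each of these 2 genes lay too low to read in 1 line of the pair, so its calls add nothing about how the lines respond. ODC1 fell further in EBC-1 than in MKN-45, by −0.62 ± 0.0847 at 24 h and −1.01 ± 0.0847 at 48 h (adjusted p = 1.88e-06 and 4.14e-10), and SRM by −0.93 ± 0.15 and −1.46 ± 0.15. AMD1 and SMS did not pass between these lines, with differences of 0.32 ± 0.144 and −0.18 ± 0.144 for AMD1 and −0.02 ± 0.148 and 0.03 ± 0.148 for SMS. The AMD1 differences passed with the third treated HCC827 array of 24 h left out (adjusted p = 0.000159 and 0.0212). At 48 h the response of ODC1 in MKN-45 (−0.82) and in HCC827 (−0.89) differed by 0.07 ± 0.0847 (adjusted p = 0.551), and that of SRM by 0.30 ± 0.15 (adjusted p = 0.0969, or 0.00444 without that array). For SMS the same difference was −1.21 ± 0.148 (adjusted p = 2.05e-07).

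**Figure D4:**
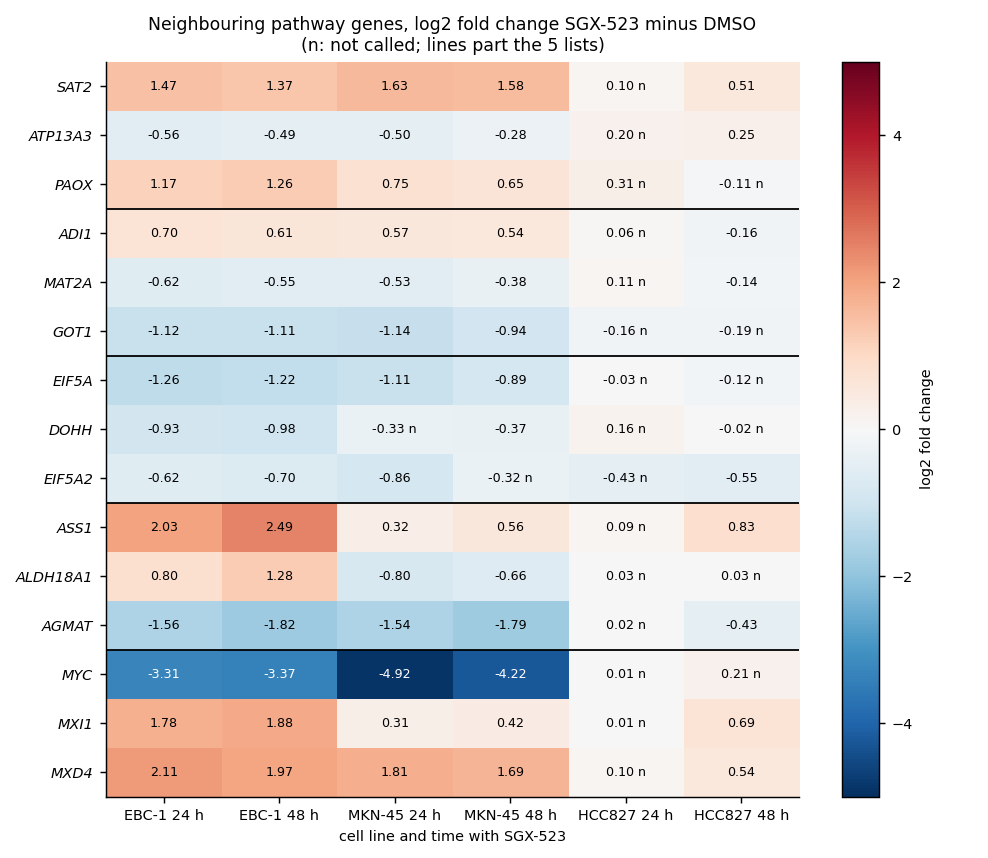
Log2 fold change, SGX-523 minus DMSO, of the 3 genes named from each of 5 neighbouring lists, by cell line and time. The lists are transport, oxidation and isoforms, the methionine cycle and salvage, hypusine, arginine and proline supply, and the MYC network, and the letter n marks changes that were not called. MYC reads −3.31 and −3.37 in EBC-1, −4.92 and −4.22 in MKN-45, and 0.01 and 0.21 in HCC827.

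MYC, whose protein activates ODC1, was the most strongly lowered of the genes named here. It averaged 7.57 ± 0.0848 at 24 h and 7.52 ± 0.0413 at 48 h in EBC-1, against 10.89 ± 0.0445 with DMSO. In MKN-45 it averaged 4.56 ± 0.148 and 5.26 ± 0.181, against 9.47 ± 0.0671 with DMSO, and in HCC827 11.93 ± 0.0885 and 12.13 ± 0.0231, against 11.92 ± 0.0410 (SD, 3 arrays each). The change was −3.31 and −3.37 in EBC-1 and −4.92 and −4.22 in MKN-45, each ± 0.0783, the largest adjusted p being 4.34e-21. In HCC827 at 48 h, where ODC1, AMD1 and SRM were called lower, MYC gave 0.21 ± 0.0783 (adjusted p = 0.059), which 5 alternatives called higher, among them the fit without 24 h replicate 3 (adjusted p = 0.0153). The 24 h mean in MKN-45 lay under the array median (−0.57), so the size of that fall is less certain than its direction. Of the 6 MYC network genes tested, 4 were called higher and 1 lower in EBC-1 at both times, 2 and 2 in MKN-45 at 24 h, 3 and 1 at 48 h, and 0 and 0, then 2 and 0, in HCC827. Among all genes, 31.2% and 32.7% were called higher and 28% and 28.9% lower in EBC-1. The shares were 33.4% and 36.4% higher and 26.9% and 26.2% lower in MKN-45. They were 0.0323% and 11.6% higher and 0% and 10.7% lower in HCC827. MXD4, a MAX partner that opposes MYC, rose by 2.11, 1.97, 1.81 and 1.69, and MXI1, another, by 1.78 and 1.88 in EBC-1. In MKN-45, MXI1 gave 0.31 and 0.42, which were −0.03 and 0.11 when scaled on the hybridization controls. Over the mean of its probe sets these values were 0.10 and 0.17, not called (adjusted p = 0.424 and 0.144). MXD1, of the same family and named after its values were seen, gave 1.46 and 1.91 in EBC-1, both called, and −0.62 (adjusted p = 3.02e-05) and −0.06 (adjusted p = 0.646) in MKN-45.

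Of the transport, oxidation and isoform list, 9 of 10 genes could be tested. In EBC-1, 4 were called higher and 2 lower at both times, in MKN-45 3 and 1, then 3 and 2, and in HCC827 0 and 0, then 2 and 0. Called shares over all genes were 31.2% to 32.7% higher and 28% to 28.9% lower in EBC-1. They were 33.4% to 36.4% and 26.2% to 26.9% in MKN-45, and 0.0323% and 0%, then 11.6% and 10.7%, in HCC827. The list's median change was 0.04 and 0.13 in EBC-1, −0.11 and 0.07 in MKN-45, and 0.20 and 0.05 in HCC827. The medians of all genes lay between −0.009 and 0.067. SAT2, a relative of SAT1, rose in both MET-dependent lines, by 1.47 ± 0.0475 and 1.37 ± 0.0475 in EBC-1 and 1.63 ± 0.0475 and 1.58 ± 0.0475 in MKN-45, and by 0.51 in HCC827 at 48 h. PAOX, the oxidase that takes acetylated polyamines, rose by 1.17, 1.26, 0.75 and 0.65 in the same 4 comparisons, the last of which was lost without MKN-45 DMSO replicate 3 (0.52, adjusted p = 0.0529). ATP13A3, a polyamine transporter, fell by −0.56 and −0.49 in EBC-1 and −0.50 and −0.28 in MKN-45, where the 48 h call was lost without 48 h replicate 1 or 2 (adjusted p = 0.0517 and 0.0638). SMOX, the spermine oxidase, was named after its values were seen, and gave −0.61 and −0.52 in EBC-1 (called) and −0.17 and −0.29 in MKN-45 (not called).

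The hypusine pathway turns spermidine into a modified residue of the translation factor EIF5A. Of its 4 genes, 1 was called higher and 3 lower in EBC-1 at both times, 0 and 2 in MKN-45 at both times, and 0 and 0, then 1 and 1, in HCC827. Called shares over all genes were 31.2% to 32.7% higher and 28% to 28.9% lower in EBC-1. They were 33.4% to 36.4% and 26.2% to 26.9% in MKN-45, and 0.0323% and 0%, then 11.6% and 10.7%, in HCC827. EIF5A fell by −1.26 ± 0.0555 and −1.22 ± 0.0555 in EBC-1 and −1.11 ± 0.0555 and −0.89 ± 0.0555 in MKN-45, and gave −0.03 and −0.12 in HCC827, not called. The 48 h value in HCC827 was called lower with array weights (−0.11, adjusted p = 0.022) and without HCC827 24 h replicate 3 (adjusted p = 0.0307). DOHH, the second enzyme of the modification, fell by −0.93 and −0.98 in EBC-1 and gave −0.33 (adjusted p = 0.0556) and −0.37 in MKN-45. The 48 h call of DOHH in MKN-45 was lost when any of 5 arrays was left out (adjusted p = 0.0552 to 0.0864). EIF5A2, a close relative of EIF5A, fell by −0.62 and −0.70 in EBC-1, by −0.86 in MKN-45 at 24 h and by −0.55 ± 0.154 in HCC827 at 48 h (adjusted p = 0.0109). Its values of −0.32 in MKN-45 at 48 h and −0.43 in HCC827 at 24 h were not called, and the HCC827 call was lost without 48 h replicate 2 (−0.49, adjusted p = 0.0594). DHPS, the first enzyme, was named after its values were seen and was the gene called higher in EBC-1, at 0.27 and 0.30. Medians over the list were −0.77 and −0.84 in EBC-1, −0.59 and −0.34 in MKN-45, and 0.04 and −0.07 in HCC827. The medians of all genes lay between −0.009 and 0.067.

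Of the 10 methionine cycle and salvage genes, 2 were called higher and 5 lower in EBC-1 at 24 h and 2 and 6 at 48 h, 2 and 3, then 2 and 4, in MKN-45, and 0 and 0, then 0 and 2, in HCC827. Their medians were −0.26 and −0.54 in EBC-1, −0.06 and −0.19 in MKN-45, and −0.04 and −0.14 in HCC827. The medians of all genes lay between −0.009 and 0.067. Called shares over all genes were 31.2% to 32.7% higher and 28% to 28.9% lower in EBC-1. They were 33.4% to 36.4% and 26.2% to 26.9% in MKN-45, and 0.0323% and 0%, then 11.6% and 10.7%, in HCC827. GOT1, an aminotransferase that can complete the salvage, fell by −1.12, −1.11, −1.14 and −0.94 in EBC-1 and MKN-45. MAT2A, which makes the S-adenosylmethionine that AMD1 uses, fell by −0.62, −0.55, −0.53 and −0.38. ADI1, a dioxygenase of the salvage route, rose by 0.70, 0.61, 0.57 and 0.54.

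Of the 10 genes of ornithine, arginine and proline supply, 7 could be tested. In EBC-1, 3 were called higher and 3 lower at both times, in MKN-45 1 and 5 at both times, and in HCC827 0 and 0, then 1 and 1. Their medians were 0.00 and 0.01, −0.54 and −0.40, and 0.03 and 0.03 in these lines. The medians of all genes lay between −0.009 and 0.067. Called shares over all genes were 31.2% to 32.7% higher and 28% to 28.9% lower in EBC-1. They were 33.4% to 36.4% and 26.2% to 26.9% in MKN-45, and 0.0323% and 0%, then 11.6% and 10.7%, in HCC827. ALDH18A1, which makes the precursor shared by proline and ornithine, moved in opposite directions, by 0.80 ± 0.0479 and 1.28 ± 0.0479 in EBC-1 and −0.80 ± 0.0479 and −0.66 ± 0.0479 in MKN-45. ASS1, the argininosuccinate synthase, rose by 2.03 and 2.49 in EBC-1. It gave 0.32 and 0.56 in MKN-45, the first of which was −0.02 when scaled on the hybridization controls. AGMAT, annotated as an agmatinase, fell by −1.56 and −1.82 in EBC-1 and −1.54 and −1.79 in MKN-45.

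Across the 27 arrays, with each value taken minus the DMSO mean of its line, the genes whose pattern was most like that of ODC1 were GPATCH4 (Pearson's r of 0.988), SF3A3, MRPL20, DNAJC9 and RBM8A (0.984 each). Those most like SAT1 were ID2 (0.983), HTATIP2 (0.983), SLC8B1 (0.979), ACAA2 (0.976) and FOXO1 (0.974). On the same scale ODC1 had an r of 0.72 with MYC. SRM had an r of 0.937 with ODC1 and 0.650 with MYC, while AMD1 had 0.857 with ODC1 and 0.945 with MYC. SMS had 0.741 and 0.885, and SAT1 −0.698 and −0.091. Outside the synthesis genes, OAZ1 had 0.859 and 0.673, MTAP 0.72 and 0.382, and AZIN1 0.604 and 0.301. OAZ2 had −0.16 and −0.229, and ARG2 0.073 and 0.59. These r values are descriptions, since the arrays share lines, treatments and normalization.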

How the data were processed

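RNA of cultured human cancer lines was labelled from its 3 prime end and hybridised to 27 arrays of 1 colour, per the labels' protocols. The deposited table gives 1 log2 value per probe set and array, between 1.87 and 14.38 for 49395 probe sets. MAS5 appears, per the submitters' processing notes, without a stated role, so the normalization by the authors is unknown here. From the medians, the HCC827 arrays may have been normalized apart.

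There were 44988 probe sets with 1 gene, 1832 with more than 1, 2473 with no gene and 102 controls. Entrez IDs matched 44967 of the first to RefSeq (GRCh38.p14). Probe sets reaching the array median on at least 3 arrays were kept (27368 with 1 gene), and the brightest stood for its gene. The 10 genes have 33 single-gene probe sets in all. Tests used limma 3.58.1 in R 4.3.3 (9 group means, eBayes with an intensity trend, 18 residual degrees of freedom) with Benjamini-Hochberg adjustment over 12390 genes within each of 16 comparisons, at 0.05. The method was tested on simulated data. Promoter letters were counted with Python 3.11.15.

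Earlier results of these data were known when the members, lists, tests and naming rule were chosen. The rule took the 10 genes, MYC, up to 3 tested genes per list by smallest adjusted p over EBC-1 and MKN-45, and the 5 genes most like ODC1 and SAT1. Listed genes without a kept single-gene probe set, such as SLC22A3, PRODH and ARG1, were not tested. Alternatives were quantile normalization, centring, no filter and a stricter filter at the 75th percentile, mean of probe sets, no trend, separate fits, array weights, a replicate block, and each array left out. Scaling on hybridization controls was added after the data were seen. Same-numbered replicates deviated with correlations of −0.197 to 0.159, so the numbers only name arrays.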

Additional observations from a re-analysis of the deposited data

Results flagged for a closer look

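Responses were compared between the lines in pairs for each of the 10 genes at both times. In 45 of these 60 tests, where 42.1% to 52.7% of all genes passed in each comparison, limma's adjusted p was under 0.05, and each is given as the log2 response of the line named first minus that of the other. The 45 include the ARG2 calls and the MTAP calls against MKN-45, whose limits are given with their values. ODC1, the first enzyme of synthesis, differed at 24 h by −1.45 (EBC-1 minus HCC827), −0.83 (MKN-45 minus HCC827), −0.62 (EBC-1 minus MKN-45) and at 48 h by −0.94 (EBC-1 minus HCC827), −1.01 (EBC-1 minus MKN-45). AMD1, the source of the aminopropyl group, differed at 24 h by −1.32 (EBC-1 minus HCC827), −1.64 (MKN-45 minus HCC827) and at 48 h by −1.0 (EBC-1 minus HCC827), −0.82 (MKN-45 minus HCC827). With the third treated HCC827 array of 24 h left out, the 24 h values of AMD1 were −1.52 and −1.85. SRM, the spermidine synthase, differed at 24 h by −2.04 (EBC-1 minus HCC827), −1.11 (MKN-45 minus HCC827), −0.93 (EBC-1 minus MKN-45) and at 48 h by −1.15 (EBC-1 minus HCC827), −1.46 (EBC-1 minus MKN-45). Without the same array its 24 h differences from HCC827 were −1.85 for EBC-1 and −0.92 for MKN-45. SMS, the spermine synthase, differed at 24 h by −0.51 (EBC-1 minus HCC827), −0.49 (MKN-45 minus HCC827) and at 48 h by −1.18 (EBC-1 minus HCC827), −1.21 (MKN-45 minus HCC827). Without the third treated HCC827 array of 24 h, the 24 h values of SMS were −0.74 and −0.73. The antizyme OAZ1 differed at 24 h by −0.29 (EBC-1 minus HCC827), −0.11 (MKN-45 minus HCC827), −0.18 (EBC-1 minus MKN-45) and at 48 h by −0.26 (EBC-1 minus HCC827), −0.10 (MKN-45 minus HCC827), −0.16 (EBC-1 minus MKN-45). The MKN-45 minus HCC827 value at 24 h was −0.08 and not called with the third treated HCC827 array of 24 h left out (adjusted p = 0.0512). AZIN1, the antizyme inhibitor, differed at 24 h by −0.35 (EBC-1 minus HCC827), −0.54 (EBC-1 minus MKN-45) and at 48 h by −0.38 (EBC-1 minus HCC827). The 24 h value of EBC-1 minus HCC827 was −0.23 when replicate 1 of treated HCC827 was left out (adjusted p = 0.161), and 10 arrays in all ended the call when left out singly. SAT1, the acetyltransferase, differed at 24 h by 1.09 (EBC-1 minus HCC827), −0.48 (MKN-45 minus HCC827), 1.57 (EBC-1 minus MKN-45) and at 48 h by 0.62 (EBC-1 minus HCC827), −0.66 (MKN-45 minus HCC827), 1.28 (EBC-1 minus MKN-45). The 48 h value of EBC-1 minus HCC827 was 0.27 when scaled on the hybridization controls (adjusted p = 0.162). MTAP, the salvage enzyme, differed at 24 h by −0.91 (EBC-1 minus HCC827), −0.91 (EBC-1 minus MKN-45) and at 48 h by −1.60 (EBC-1 minus HCC827), −1.81 (EBC-1 minus MKN-45). The 24 h value of EBC-1 minus HCC827 was −1.30 with the third treated HCC827 array of 24 h left out. The 24 h value of EBC-1 minus MKN-45 was lost without MKN-45 DMSO replicate 2 (−0.62, adjusted p = 0.0918). MTAP lay under the array median on all MKN-45 arrays, so its differences from MKN-45 set a fall against a signal too low to read. OAZ2, the second antizyme, differed at 24 h by 0.33 (MKN-45 minus HCC827), −0.27 (EBC-1 minus MKN-45) and at 48 h by −0.75 (EBC-1 minus HCC827), −0.55 (EBC-1 minus MKN-45). The 24 h value of EBC-1 minus MKN-45 was lost when any of 10 arrays was left out. ARG2, the arginase, differed at 24 h by −1.28 (MKN-45 minus HCC827), 1.95 (EBC-1 minus MKN-45) and at 48 h by −1.58 (MKN-45 minus HCC827), 1.89 (EBC-1 minus MKN-45). ARG2 passed the filter only through MKN-45 and lay under the array median in EBC-1 and HCC827 throughout, so a fall could not have been read there and these differences say nothing of a response in those lines.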

How the results depend on the processing

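Over the alternatives, 10 genes in 16 comparisons kept direction and side of the threshold in 146 of 160 values with array weights, 155 with each array centred, 154 without the trend, 148 over the mean of probe sets, 155 without a filter, 149 under quantile normalization and 140 when scaled on hybridization controls. Separate fits kept 82 of 90, the stricter filter 143 of 144 (ARG2 dropped out), and leaving out arrays 1355 of 1440, with 59 calls lost, 26 gained and 0 reversed. The number of the 10 genes called between 48 h and 24 h in EBC-1 was 2, and was 1 under quantile normalization, 5 with array weights, 6 in a separate fit and 0 when scaled on hybridization controls. Scaled in that way, it was 2 in place of 5 for 48 h against 24 h in MKN-45, and 5 in place of 8 for EBC-1 against MKN-45 responses at 24 h. Values that turned on that scale were OAZ2 in EBC-1 at 24 h (−0.22), ASS1 (−0.02) and MXI1 (−0.03) in MKN-45 at 24 h. Over the mean of probe sets OAZ1 in EBC-1 turned to −0.13 at 48 h against 24 h, and AMD1 with DMSO to −0.08 for EBC-1 minus MKN-45. The cause was not tested. With 1 array left out, the count called was 8 to 8 and 8 to 8 in EBC-1, 7 to 9 and 6 to 8 in MKN-45, 0 to 4 and 5 to 5 in HCC827, at 24 h and 48 h. Between times it was 0 to 5, 4 to 6 and 4 to 6. For responses of EBC-1 against HCC827, MKN-45 against HCC827 and EBC-1 against MKN-45 it was 6 to 8, 7 to 8 and 6 to 9 at 24 h and 8 to 9, 4 to 6 and 7 to 9 at 48 h, and with DMSO 9 to 10. A replicate block, on numbers that only name arrays, kept 156 of 160 values and gave 7346 calls over all genes in EBC-1 at 24 h, against 7336 without it. Genes called in HCC827 at 24 h numbered 4, against 20 without replicate 3, 27 under quantile normalization, 0 with the replicate block and 0 when scaled on hybridization controls. Without that array the calls rose to 2972 against 1371 for 48 h against 24 h in EBC-1, to 4919 against 3008 in MKN-45, and to 4649 against 2755 in HCC827 at 48 h. Of 1497 values of the other named genes, 1442 kept their call. Signals under the array median limit MTAP in MKN-45, and ARG2 outside MKN-45 given DMSO.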

Other observations

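Some neighbours of MTAP were also low in MKN-45. In the gene order of RefSeq (GRCh38.p14), 53 genes lie within 1 Mb of MTAP on either side, a window chosen after the values of MTAP were seen, and 23 of them, MTAP included, have a single-gene probe set. Of the 23, 17 lay under the array median on all arrays of all lines, among them the interferon genes, and cannot show a difference. KLHL9, MTAP, CDKN2A and CDKN2B were the 4 genes that reached the array median on 0 of 9 MKN-45 arrays and on 9 of 9 arrays in EBC-1 and in HCC827. KLHL9, a ubiquitin ligase adaptor, averaged 3.33 ± 0.676 with DMSO in MKN-45 and 7.80 ± 0.0619 in EBC-1. CDKN2A, which encodes the cell cycle inhibitor p16, averaged 4.19 ± 0.0548 in MKN-45 and 8.98 ± 0.0379 in EBC-1, and CDKN2B, a related inhibitor, 3.12 ± 0.248 and 7.04 ± 0.0213 (SD, 3 arrays each). FOCAD, in the same window, lay above the median on 9 of 9 arrays in every line, and averaged 7.11 with DMSO in MKN-45 and 7.05 in EBC-1. The copy number of these genes was not measured here.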
